A study of Drosophila melanogaster with 3 samples.

Results

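The general transcription factor genes TfIIA-S-2, TfIIA-S, TfIIA-L, Tbp, Trf and Trf2 and the elongation kinase genes Cdk9 and CycT were followed through early germ cells of Drosophila melanogaster, the fruit fly. They are 8 of the 17747 genes listed in the count matrices and were found there by symbol. The choice was made with earlier results of these data known, in which TfIIA-S-2 stood among the genes most unequal between germ cell stages. Their values are therefore given as a description, and nothing is tested on them.

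TFIIA is a general transcription factor that joins TBP, the TATA-binding protein, on the promoter and stabilises it there. TfIIA-L encodes a precursor that is cut into the large subunits, TfIIA-S encodes the small subunit, and TfIIA-S-2 is a further gene of the small-subunit family. Trf and Trf2 encode relatives of TBP: in flies Trf works with Brf at RNA polymerase III promoters, and Trf2 serves promoters that lack a TATA box, among them those of histone H1 and of ribosomal protein genes. Cdk9 and CycT encode the kinase and the cyclin of P-TEFb, which phosphorylates the tail of RNA polymerase II and releases the paused enzyme into elongation. The small protein of polar granule component (pgc), a maternal RNA of the germ plasm, binds P-TEFb and holds messenger RNA synthesis down in newly formed pole cells, the founders of the germline. Germ cells were therefore ordered by their pgc level, and the 8 genes were described along that order, between the sexes, and in the other cells of the same libraries.

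Cells positive for GFP were sorted from dissociated embryos, and 1 droplet library was made per group with a 10x Genomics kit that counts transcripts at their 3′ ends. The unsexed library carried vas-GFP, covered the span from 0 to 8 h and was made with kit version 2. The female library and the male library carried vas-GFP with Sxl-GFP, covered the span from 5 to 8 h and were made with kit version 3. With 1 library per group there is no spread between libraries, no standard deviation and no p-value, and all intervals are 95% intervals that cover counting error only. Levels are not set against each other between the unsexed and the sexed libraries, where kit and age cannot be told apart, other than in a closing ranking of genes that spans the 3 libraries.

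The matrices hold 58378567 UMIs (unique molecular identifiers, each a counted transcript) in 3810 unsexed cells, 109431813 in 10386 female cells and 47345241 in 6756 male cells. After filtering and doublet removal, 3657, 9430 and 6329 cells remained. A cell with UMIs for at least 3 of the 7 genes vas, nos, pgc, zpg, aub, CG17650 and CG14545 was taken as a germ cell. This gave 3198 unsexed, 1073 female and 4377 male germ cells, and left 459, 8357 and 1952 other cells. A list of 10 germline genes that the rule did not use summed to 903 CPM (UMIs scaled to a total of 1000000) in unsexed germ cells and 253 CPM in the other cells, to 1085 and 273 CPM in the female library, and to 1058 and 471 CPM in the male library. Germ cells were deeper than other cells, with medians of 16675.5 against 3677 UMIs per cell in the unsexed library, 18539 against 6888 in the female library and 7718 against 3861 in the male library. The female and male matrices share 17 cell barcodes, the unsexed and female matrices 1, and the unsexed and male matrices 0.

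In BDGP6 coordinates from the Ensembl annotation, TfIIA-S-2 (FBgn0040338) lies on chromosome X at 1011101 to 1011643 on the minus strand. TfIIA-S (FBgn0013347) lies on 3R at 23890388 to 23891060 on the minus strand, and TfIIA-L (FBgn0011289) on 3R at 27251112 to 27256463 on the plus strand. Tbp (FBgn0003687) lies on 2R at 21686192 to 21687642 on the minus strand, Trf (FBgn0010287) on 2L at 8072895 to 8073948 on the plus strand, and Trf2 (FBgn0261793) on X at 8409272 to 8433011 on the plus strand. Cdk9 (FBgn0019949) lies on 2R at 22636063 to 22637727 and CycT (FBgn0025455) on 3L at 17551004 to 17557788, each on the minus strand. TfIIA-S-2 and Trf2 are thus the X-linked genes of the set. Exons of Tbp, TfIIA-L and Trf2 overlap genes on the opposite strand, and for Tbp the partner, eIF3k, covers the 3′ end where transcripts are counted. Whether the counting used strand, and how reads matching more than 1 of these related genes were counted, is not given in the sources used here.

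Germ cells were split by their own pgc level at 100, 500 and 2000 CPM. Cells under 100 CPM are called pgc-low, and cells at 500 CPM or more pgc-high. The unsexed library held 1458 pgc-low and 1144 pgc-high germ cells, the female library 746 and 150, and the male library 2787 and 744. Most pgc-low cells had 0 pgc UMIs, namely 1037 of 1458, 597 of 746 and 2664 of 2787. In a shallow cell a single pgc UMI is enough to pass 100 CPM, so the classes depend on depth. Germ cells were shallowest in the male library, with a median of 7718 UMIs, against 16675.5 (unsexed) and 18539 (female). The part of depth in differences between libraries along pgc was not tested. The pgc order runs alongside that of early embryonic genes. UMIs for at least 2 of 9 early blastoderm genes were found in 76.4% of unsexed pgc-high cells and 2.61% of pgc-low cells. The shares were 44% and 6.03% in the female library, and 22.7% and 2.51% in the male library. The part of stage, apart from pgc, in what follows was not tested, beyond the values given without these cells.

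A gene was called different between pgc-low and pgc-high germ cells when its CPM differed at least 2-fold, provided that it reached 20 CPM in either sum and 50 UMIs over both. In the unsexed library, TfIIA-S-2, TfIIA-S and Trf were higher in pgc-low cells, 3 of the 8 genes, against 12.3% of the 4861 genes past this size filter. None of the 8 was lower there, against 9.07% of all genes. In the female library only TfIIA-S-2 was called, 1 of 8 against 2.22% higher and 4.08% lower over 5219 genes. In the male library 7 of the 8 passed the size filter and 0 were called, against 0.978% higher and 2.66% lower over 5113 genes, and TfIIA-S-2 itself missed the filter at 17.5 CPM. Because the genes were chosen on a contrast of this kind, nothing is read from these counts. The median log2 ratio of pgc-low over pgc-high cells over all genes past the filter was 0.13, 0.053 and 0.018 in the unsexed, female and male libraries.

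TfIIA-S-2 was lower in pgc-high than in pgc-low germ cells, with few counts behind its pgc-high levels. In the unsexed library its level was 0.406 CPM (4 UMIs in 591 cells) at 2000 CPM of pgc or more, 1.53 CPM at 500 to 2000, 12.7 CPM at 100 to 500 and 60.1 CPM below 100. The intervals of the first and second of these levels overlap (0.111 to 1.04 and 0.812 to 2.61 CPM), whereas the third and the fourth stand apart from each other and from the rest. In the female library the level was 7.00 CPM at 500 to 2000 CPM of pgc, 9.73 CPM at 100 to 500 and 30.7 CPM below 100, and the 17 female cells at 2000 CPM or more, too few to describe as a group, held 0 UMIs. In the male library it was 1.44, 4.90, 6.00 and 17.5 CPM from the highest to the lowest pgc level, and the intervals of the first 3 overlap. The lowest pgc level thus held the highest TfIIA-S-2 level in each library.

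Taken as pgc-low against pgc-high, TfIIA-S-2 stood at 60.1 and 0.925 CPM in the unsexed library, 65.0-fold higher (interval 40.5 to 112), and 1507 UMIs faced 17. No other gene of the 4861 past the filter had a larger log2 ratio. The gene was chosen on a contrast of this kind and reached 20 CPM in pgc-low cells alone, so nothing is read from this rank. In the female library the levels were 30.7 and 6.37 CPM, a ratio of 4.82 (2.89 to 8.68), and in the male library 17.5 and 4.42 CPM, a ratio of 3.97 (2.59 to 6.40). Without the cells that held UMIs for at least 2 early blastoderm genes, the log2 ratio was 3.90 rather than 4.99 in the unsexed library, 1.49 rather than 2.10 in the female library and 1.63 rather than 1.77 in the male library. Below the lowest limit the level differed again. Germ cells with 0 pgc UMIs held TfIIA-S-2 at 69.4, 33.2 and 18.3 CPM in the 3 libraries, against 39.1, 21.0 and 7.20 CPM in cells with a pgc UMI but under 100 CPM. A cell with a pgc UMI falls under 100 CPM only if it is deep. In the male library the 123 such cells had a median of 11375 UMIs, against 7955 in those with 0 pgc UMIs. The medians were 18206 and 17201 in the unsexed and 20439 and 19018 in the female library. The male 7.20 CPM rests on 11 UMIs, and the part of depth was not tested.

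**Figure D1:**
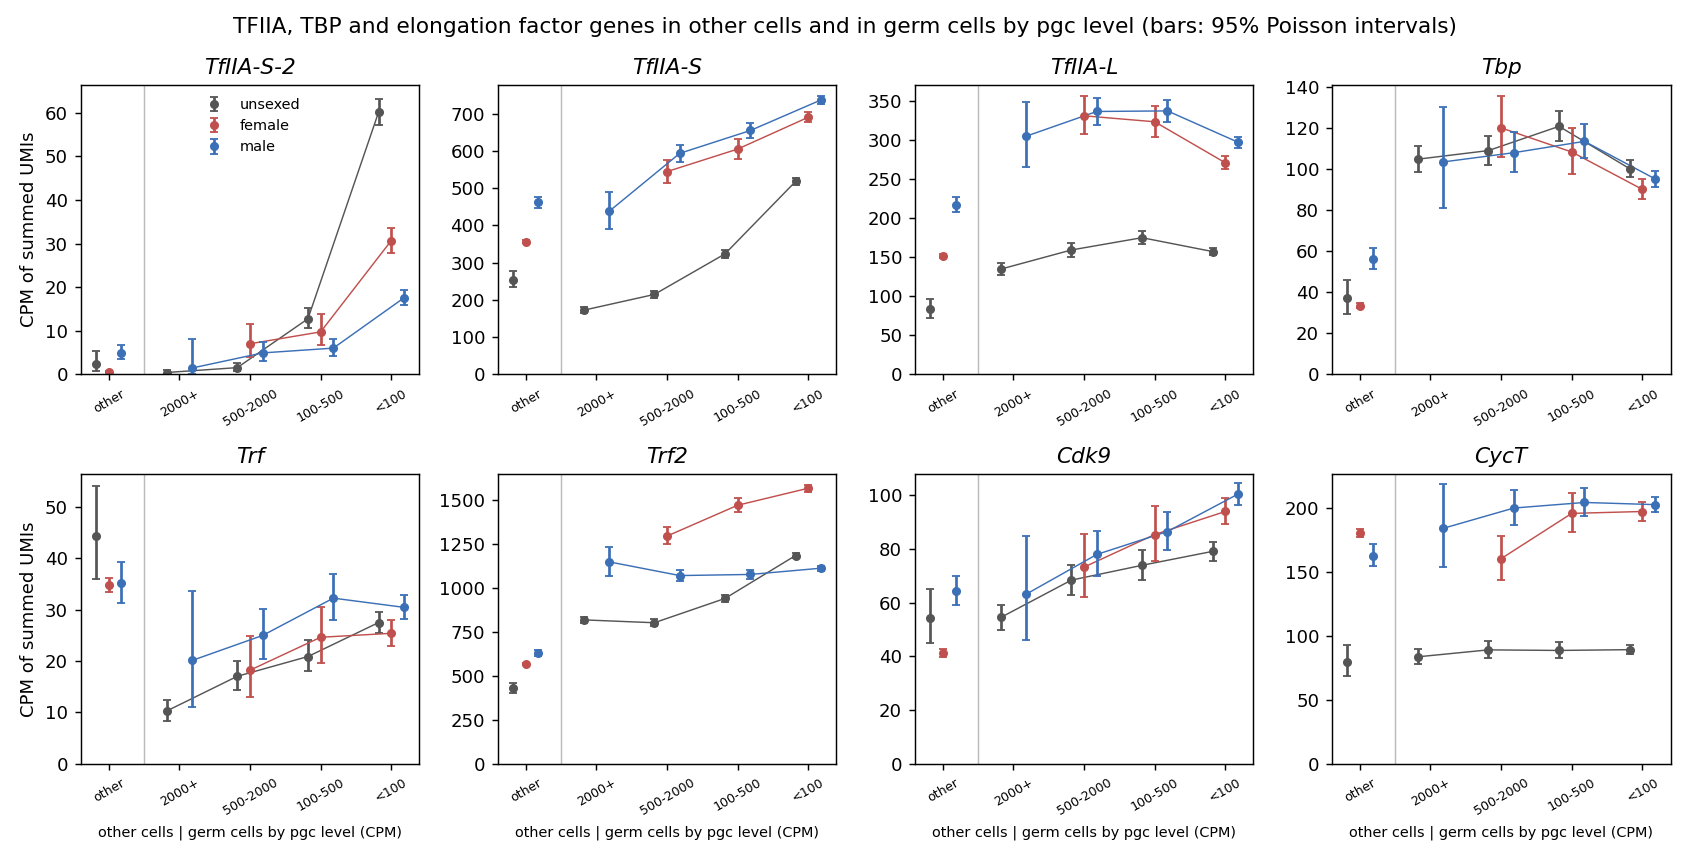
CPM of summed UMIs (vertical axis, linear, its own range in each panel) of the 8 genes in other cells and in germ cells by pgc level (horizontal axis, pgc falling to the right), with 1 point per library and class and bars for 95% Poisson intervals. The female class at 2000 CPM or more is left out because it holds 17 cells. TfIIA-S-2 reaches 60.1, 30.7 and 17.5 CPM at the lowest pgc level, TfIIA-S climbs from 172 to 518 CPM in the unsexed library, and Tbp stays between 90.0 and 121 CPM in every germ cell class drawn.

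TfIIA-S-2 was found in a minority of germ cells even where it was highest. Of the 1458 unsexed pgc-low cells, 647 (44.4%) had a UMI, 207 had 3 or more, and the highest cell had 15. Of the 746 female pgc-low cells, 235 (31.5%) had a UMI, and of the 2787 male ones 322 (11.6%). These shares follow depth, so each cell was also thinned to 2000 UMIs. After thinning, 10.2% of unsexed, 5.90% of female and 3.16% of male pgc-low cells held a UMI, with 2, 0 and 1 shallower cells left out. The thinned share in pgc-high cells was 0.175% (interval 0.0212 to 0.631%) in the unsexed, 0.671% (0.0170 to 3.68%) in the female and 0.811% (0.298 to 1.76%) in the male library, with 2, 1 and 4 cells left out. In other cells with 0 of the 7 germ genes it was 0.585% (0.0148 to 3.22%), 0.126% (0.0542 to 0.247%) and 0.294% (0.0606 to 0.856%), with 43, 130 and 200 cells left out. The thinned intervals of pgc-high cells and of these other cells overlap in every library, on few cells with a UMI. All UMIs of the classes, without thinning, give more counts. By these, unsexed pgc-high cells at 0.925 CPM (0.539 to 1.48) were not told apart from the other cells with 0 of 7 germ genes at 1.29 CPM (0.0327 to 7.19). Female pgc-high cells at 6.37 CPM (3.56 to 10.5) lay above such cells at 0.644 CPM (0.443 to 0.905), and male ones at 4.42 CPM (2.77 to 6.69) above such cells at 0.861 CPM (0.235 to 2.21). What free RNA or misplaced cells add to any of these levels was not tested.

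**Figure D2:**
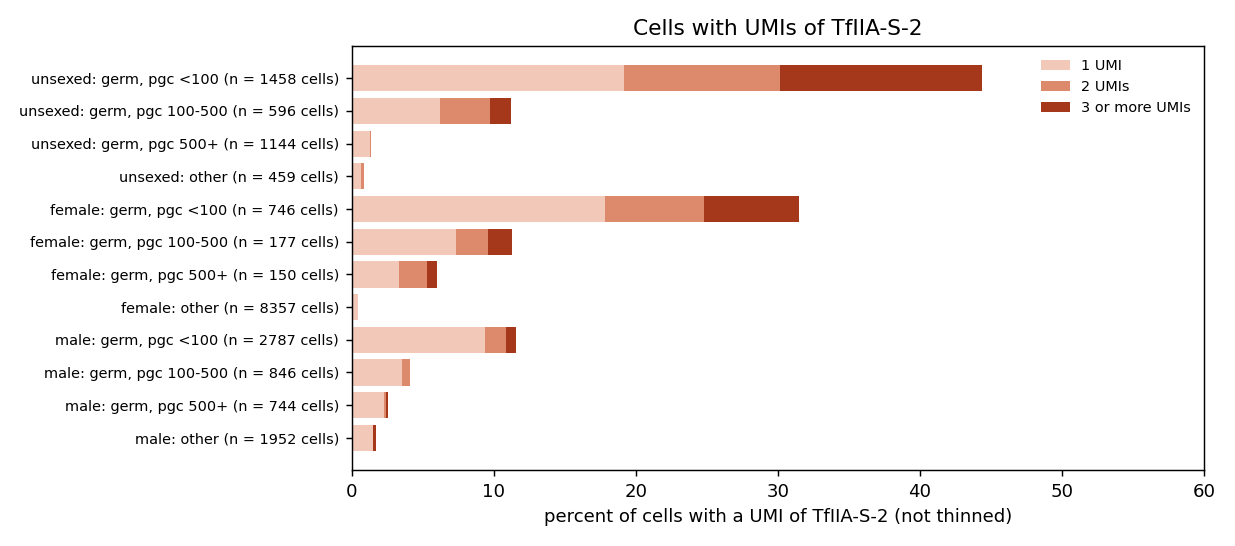
Percentage of cells (horizontal axis, not thinned) with 1, 2 or at least 3 UMIs of TfIIA-S-2, stacked, for germ cells by pgc level and for other cells of each library (rows, with cell numbers). The bar of unsexed pgc-low cells reaches 44.4%, that of female ones 31.5% and that of male ones 11.6%, and no bar of other cells passes 1.74%. Median depth differs between the rows.

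The usual small-subunit gene, TfIIA-S, also differed with pgc, over a narrower range. In the unsexed library its level was 172, 215, 323 and 518 CPM from the highest to the lowest pgc level, and none of the 4 intervals overlap. The female levels were 545, 605 and 691 CPM from 500 to 2000 CPM of pgc downwards, and the male levels 438, 594, 655 and 737 CPM. The ratio of pgc-low to pgc-high cells was 2.70 (2.60 to 2.80) in the unsexed library, past the 2-fold limit, and 1.30 (1.23 to 1.38) in the female and 1.29 (1.24 to 1.34) in the male library, within it. TfIIA-S-2 made up 10.4% (9.90 to 10.9%) of the UMIs of both small-subunit genes in unsexed pgc-low cells and 0.480% (0.280 to 0.767%) in pgc-high cells. The shares were 4.25% and 1.18% in the female library, and 2.32% and 0.767% in the male library. TfIIA-S thus held most small-subunit UMIs in every class.

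TfIIA-L, the large-subunit gene, did not reach the 2-fold limit in any library. Its levels in pgc-low and pgc-high cells were 157 and 146 CPM in the unsexed library, a ratio of 1.08 (1.02 to 1.13). They were 270.4 and 328 CPM in the female library, a ratio of 0.825 (0.764 to 0.892), and 297 and 332 CPM in the male library, a ratio of 0.895 (0.848 to 0.945). The unsexed ratio lies above 1 and the sexed ratios lie below it. Scaling by TMM, which uses trimmed means of gene ratios in place of total UMIs, lowered all unsexed log2 ratios by 0.20 and turned that of TfIIA-L from 0.11 to -0.097. The small and the large subunit genes therefore had unlike ratios within each library.

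Among the TBP family, Tbp had the ratio nearest to 1 in the unsexed library. Its levels in pgc-low and pgc-high cells were 100.1 and 107 CPM there, 90.0 and 118 CPM in the female library and 95.1 and 107 CPM in the male library, with ratios of 0.938 (0.884 to 0.996), 0.760 (0.668 to 0.868) and 0.887 (0.807 to 0.977). Trf stood at 27.5 and 13.4 CPM in the unsexed library, a ratio of 2.05 (1.77 to 2.38) that just passed the limit. It fell under the limit with TMM scaling (1.78-fold), with the mean CPM of single cells (1.93-fold), and without cells holding early blastoderm genes (1.37-fold). In the sexed libraries the levels of Trf were 25.4 and 17.0 CPM for the female pair and 30.5 and 24.3 CPM for the male pair. Thinning to 2000 UMIs per cell turned the female log2 ratio of Trf from 0.55 to -0.45, and 40 UMIs lie behind its level in female pgc-high cells. Trf2 stood at 1183 and 809.6 CPM in the unsexed library, a ratio of 1.46 (1.43 to 1.49), at 1566 and 1285 CPM in the female library, a ratio of 1.22, and at 1111 and 1080.1 CPM in the male library, where the ratio of 1.03 (0.999 to 1.06) takes in no difference.

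The P-TEFb genes, whose product pgc binds, stayed within 2-fold between pgc levels. Cdk9, the kinase, stood at 79.1 and 60.9 CPM in unsexed pgc-low and pgc-high cells, at 94.0 and 73.0 CPM in female ones and at 101 and 75.9 CPM in male ones. The ratios were close in the 3 libraries, at 1.30 (1.21 to 1.40), 1.29 (1.10 to 1.52) and 1.32 (1.19 to 1.48). CycT, the cyclin, stood at 89.0 and 85.9 CPM in the unsexed, 197 and 164 CPM in the female and 202 and 197 CPM in the male library. Its ratio was 1.04 (0.971 to 1.11), 1.20 (1.08 to 1.34) and 1.02 (0.957 to 1.10), so that an interval without 1 was found in the female library. Under TMM scaling the log2 ratio of CycT was -0.15 in the unsexed library and -0.0045 in the male library. RNA levels do not show whether P-TEFb is held by the pgc protein.

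**Figure D3:**
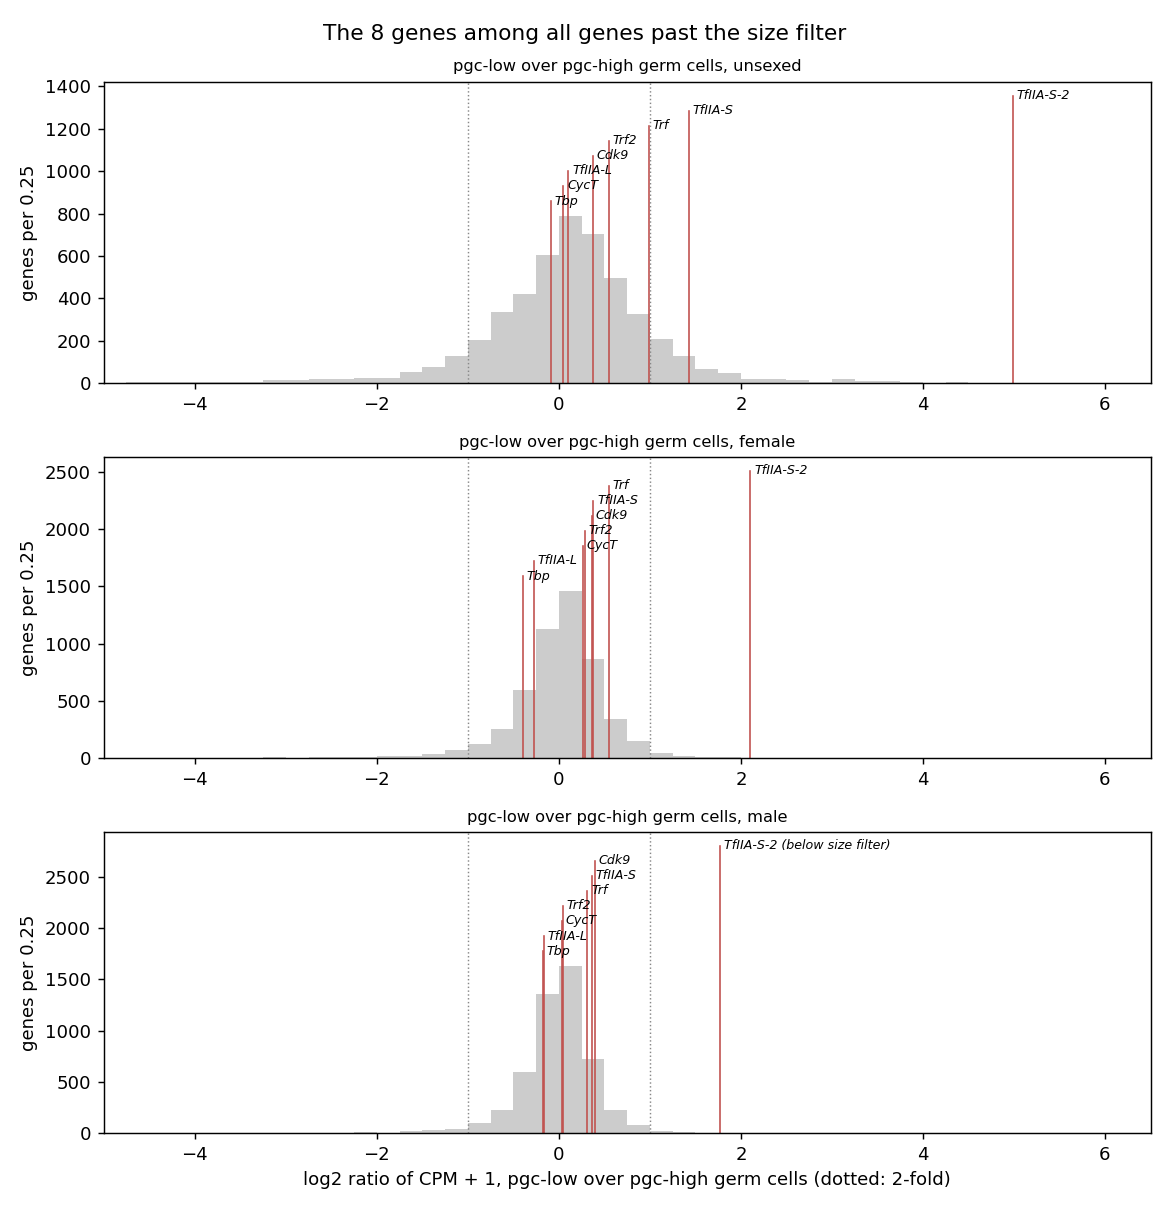
Histogram of the log2 ratio of CPM + 1 in pgc-low over pgc-high germ cells (horizontal axis) over all genes past the size filter (vertical axis, genes per bin of 0.25), 1 panel per library, with red lines for the 8 genes and dotted lines at 2-fold. Line heights carry no value. TfIIA-S-2 lies at 4.99, 2.10 and 1.77, the last below the size filter, and Tbp lies left of 0 in each panel.

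Female and male germ cells were compared in libraries of the same kit and age span. None of the 8 genes differed 2-fold, against 1.03% of 5152 genes higher in female cells and 0.0388% lower. The X-linked genes TfIIA-S-2 and Trf2 had the largest ratios of the set. TfIIA-S-2 had a level of 24.6 CPM in the female cells against 13.5 CPM in the male ones, a ratio of 1.82 (1.60 to 2.07). Trf2 stood at 1518 and 1099.9 CPM, a ratio of 1.38 (1.36 to 1.40). Their log2 ratios of 0.82 and 0.46 can be set beside medians of 0.53 over 912 X-linked genes (middle 50% from 0.37 to 0.67) and -0.10 over 4197 autosomal genes. Trf2 thus lies inside the middle range of X-linked genes, and TfIIA-S-2 lies above it.

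The autosomal genes of the set differed less between the sexes. Trf was the most unequal of them, with 24.3 CPM on the female and 29.9 CPM on the male side, a ratio of 0.812 (0.729 to 0.905). The ratios of TfIIA-S, TfIIA-L, Tbp, Cdk9 and CycT lay between 0.923 for TfIIA-L and 0.959 for Tbp. Within pgc-low cells the ratio was 1.75 (1.53 to 2.00) for TfIIA-S-2 and 1.41 (1.38 to 1.43) for Trf2. Within pgc-high cells TfIIA-S-2 rested on 15 female and 22 male UMIs, and its ratio of 1.44 (0.695 to 2.91) takes in no difference, while that of Trf2 was 1.19 (1.14 to 1.24). With each cell thinned to 2000 UMIs, TfIIA-S-2 stood at 26.1 and 11.8 CPM and passed the 2-fold limit at 2.22-fold. In thinned germ cells 4.48% of female and 2.29% of male cells held a UMI of it.

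Germ cells were then set against the other cells of the same library. The sort was for GFP, and the sexed libraries carried Sxl-GFP beside vas-GFP, so it was not a sort on the germline reporter alone there. The other cells held higher levels of listed neural and mesoderm genes than the germ cells did. The lists of endoderm, amnioserosa and epidermis genes are not given here. The summed level of 6 neural genes was 465, 1320.4 and 1105 CPM in the other cells and 61.4, 249 and 96.4 CPM in the germ cells of the unsexed, female and male libraries. The summed level of 7 mesoderm genes was 509, 844 and 499 CPM in the other cells and 183, 261 and 254 CPM in the germ cells. UMIs of Hml, a haemocyte gene, numbered 1, 2 and 0 in the other cells. The other listed haemocyte genes, srp, Pxn and gcm, are not given here, so nothing is read about haemocytes from Hml alone.

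In the unsexed library TfIIA-S-2, Tbp and Trf2 were higher in germ cells and Trf was lower, 4 of the 8 genes, against 26.8% higher and 14.7% lower over 5129 genes. With germ cells taken at 4 of the 7 genes or more, TfIIA-S-2 was the 1 call left there, and the ratios of Tbp, Trf2 and Trf were 1.72, 1.90 and 0.549. Without pgc among the germ genes the ratio of Trf was 0.525, also within the limit. In the female library TfIIA-S-2, Tbp, Trf2 and Cdk9 were higher, 4 of 8 against 35.4% higher, and 0 of 8 lower against 14.8%, over 5557 genes. In the unsexed and female libraries TfIIA-S-2 reached the 20 CPM of the filter in germ cells alone, so nothing is read from its calls. In the male library 0 of the 7 genes past the size filter were called, against 15.6% higher and 11.5% lower over 5458 genes. A 2-fold excess in germ cells was thus common among all genes. The median log2 ratio over all genes was 0.43, 0.56 and 0.36 in the 3 libraries, and TMM scaling moved ratios by 0.19, 0.52 and 0.19. With TMM the calls over all genes split into 1034 higher and 901 lower in the unsexed, 1016 and 1292 in the female and 515 and 737 in the male library, in place of 1373 and 753, 1965 and 825, and 850 and 625. Along the pgc axis the unsexed split moved in the same way, from 597 higher and 441 lower to 397 and 612.

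TfIIA-S-2 was lower in the other cells than in the germ cells of each library. Its level was 31.1 CPM in germ cells and 2.29 CPM in other cells of the unsexed library, a ratio of 13.6 (5.82 to 42.0) on 5 UMIs in other cells. It was 24.6 and 0.619 CPM in the female library, a ratio of 39.6 (29.2 to 55.0), and 13.5 and 4.89 CPM in the male library, a ratio below the size filter. The level in male other cells, on 42 UMIs, was close to that in male pgc-high germ cells (4.42 CPM). Of these UMIs, 38 lay in the 731 male cells with 1 or 2 of the 7 germ genes. The 1221 male cells with 0 of the 7 held 4 UMIs, at 0.861 CPM. Tbp stood at 106 and 37.0 CPM, 96.2 and 33.4 CPM, and 100.3 and 56.1 CPM, with ratios of 2.86 (2.30 to 3.61), 2.88 (2.71 to 3.06) and 1.79. Trf2 stood at 1009.9 and 428 CPM, 1518 and 565 CPM, and 1099.9 and 630.3 CPM, with ratios of 2.36, 2.69 and 1.75. These 3 genes were thus above other cells in each library, and the male ratio was the lowest of the 3 for each.

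Trf went the other way from Tbp. Its level was 21.4 CPM in germ cells and 44.4 CPM in other cells of the unsexed library, a ratio of 0.483 (0.392 to 0.600). The female levels were 24.3 and 34.7 CPM, a ratio of 0.700 (0.634 to 0.770), and the male levels 29.9 and 35.1 CPM, a ratio of 0.852 (0.749 to 0.971). Of the UMIs of Trf and Tbp together, Trf held 54.5%, 51.0% and 38.5% in other cells and 16.8%, 20.2% and 23.0% in germ cells. The shares of germ cells lay below those of other cells in each library.

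**Figure D4:**
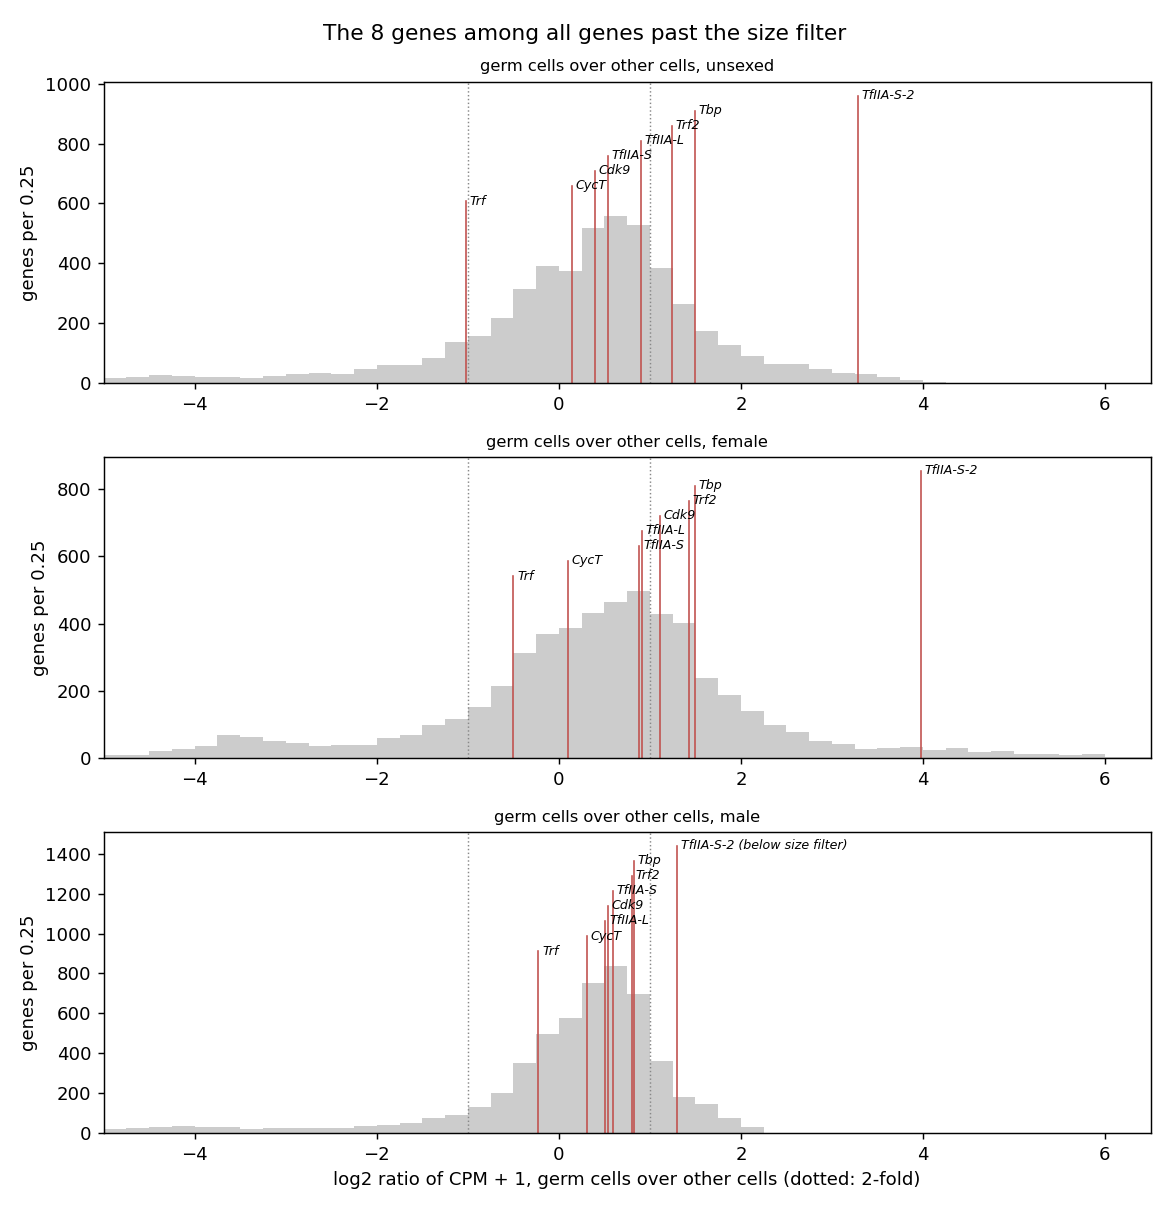
Histogram of the log2 ratio of CPM + 1 in germ cells over other cells (horizontal axis) over all genes past the size filter (vertical axis, genes per bin of 0.25), 1 panel per library, with red lines for the 8 genes and dotted lines at 2-fold. Line heights carry no value. Trf lies left of 0 in each panel, and TfIIA-S-2 is the rightmost of the 8 at 3.29, 3.98 and 1.30, the last below the size filter.

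The other 4 genes lay closer to the median of all genes. TfIIA-S stood at 370.1 CPM in unsexed germ cells and 255 CPM in other cells, at 659 and 356 CPM in the female library and at 698 and 462 CPM in the male library, with ratios of 1.45, 1.85 and 1.51. TfIIA-L had ratios of 1.88, 1.89 and 1.43. Cdk9 was called in the female library alone, at 90.2 and 41.3 CPM (ratio 2.18, 2.06 to 2.31), while its ratios were 1.32 in the unsexed and 1.46 in the male library, and whether the libraries differ was not tested. CycT had ratios of 1.10, 1.07 and 1.24. TMM scaling took Trf2 to 1.87-fold and Cdk9 to 1.52-fold in the female library, under the limit, took Trf there to a ratio of 0.488, past it, and turned the log2 ratio of CycT to -0.42 in the female and -0.050 in the unsexed library.

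The rule of 3 germ genes did not cut the libraries alike. In the male library, 410 cells with 2 of the 7 germ genes held Tbp at 98.4 CPM and TfIIA-S-2 at 12.5 CPM, and 978 cells with 3 of the 7 held them at 99.4 and 10.98 CPM. In the female library the 241 cells with 2 of the 7 held Tbp at 33.0 CPM and TfIIA-S-2 at 0.504 CPM, and the 83 cells with 3 held them at 67.5 and 13.8 CPM. In the unsexed library the 75 cells with 2 held them at 49.2 and 1.89 CPM, and the 82 cells with 3 at 130.3 and 6.52 CPM. Male cells just outside the rule thus resembled those just inside it for these genes. Median depth was 7718 UMIs in male germ cells, below that of the other libraries, and the part of depth in this was not tested.

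The male comparison was therefore repeated with the 1221 other cells that had 0 of the 7 germ genes. Against these, TfIIA-S, Tbp, Trf2 and Cdk9 were higher in germ cells, 4 of the 7 genes past the filter against 35.4% of 5588 genes, and 0 were lower against 15.2%. Tbp stood at 100.3 and 36.8 CPM, a ratio of 2.72 (2.34 to 3.20), close to its ratios in the other libraries. Trf2 stood at 1099.9 and 476 CPM, a ratio of 2.31 (2.21 to 2.41), TfIIA-S at 698 and 337 CPM, a ratio of 2.07 (1.97 to 2.18), and Cdk9 at 94.4 and 44.6 CPM, a ratio of 2.12 (1.84 to 2.45). TfIIA-S-2 stood at 13.5 and 0.861 CPM, with 4 UMIs in these other cells, a ratio of 15.6 (6.07 to 57.7). Trf again lay lower in germ cells, at 29.9 and 38.1 CPM, and made up 50.9% of the UMIs of Trf and Tbp in the male cells with 0 of 7 germ genes. The share was 50.8% in such female cells and 59.4% in such unsexed cells.

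Other genes of the same machinery were taken from lists of general transcription factors, TBP-associated factors, RNA polymerase II subunits and elongation control factors. Between pgc-low and pgc-high cells of the unsexed library, 0 of 15 general transcription factors, a list that includes Brf, and 0 of 12 TBP-associated factors past the size filter were called, against 12.3% higher and 9.07% lower over all genes. Their median log2 ratios were 0.24 and 0.13, beside 0.13 over all genes. The general factors with the widest ratios were the TFIIH subunits Tfb1, at 141 and 83.7 CPM (1.69-fold), and mrn, at 42.4 and 25.3 CPM (1.67-fold). Among the TBP-associated factors these were Taf13, at 348 and 221 CPM (1.58-fold), and Taf4, at 33.7 and 50.1 CPM (a ratio of 0.673).

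Of 11 RNA polymerase II subunits past the filter, Rpb12 was higher in unsexed pgc-low cells, at 97.8 and 47.4 CPM (2.06-fold, 1.91 to 2.23), and RpII18 stood just inside the limit at 869 and 450 CPM (1.93-fold). The 1 of 11 higher and 0 lower stand beside 12.3% and 9.07% of all genes. The median log2 ratio of the subunits was 0.51. In the sexed libraries none of the 11 was called, where 2.22% of all genes were higher and 4.08% lower in the female and 0.978% and 2.66% in the male library, and Rpb12 was 1.31-fold and RpII18 1.25-fold higher in female and 1.29-fold and 1.22-fold higher in male pgc-low cells. Of the elongation control genes, 22 passed the filter in the unsexed library, 0 were higher and 1 was lower, against 12.3% and 9.07% of all genes. That gene was EloA, which encodes Elongin A, at 18.6 and 39.5 CPM (a ratio of 0.471, 0.418 to 0.529). It reached the 20 CPM of the filter in pgc-high cells alone there, so nothing is read from this unsexed call. EloA was also lower in female pgc-low cells, at 37.7 and 87.4 CPM (0.431, 0.367 to 0.508), 1 of 25 genes past the filter against 4.08% of all genes, with 0 higher against 2.22%, and stood at 46.2 and 76.5 CPM in male cells (0.604). NELF-B, a subunit of the negative elongation factor that keeps polymerase paused, stood at 36.3 and 66.6 CPM in the unsexed library (0.544).

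Germline relatives of the TBP-associated factors, known from spermatocytes, were matched for 4 of 5 listed genes, and mia, a relative of Taf6, passed the filter. It was higher in unsexed pgc-low cells, at 28.6 and 6.75 CPM (4.24-fold, 3.50 to 5.17), where 12.3% of all genes were higher. It reached the 20 CPM of the filter in pgc-low cells alone, so nothing is read from this call. In the sexed libraries mia had 26.2 and 15.3 CPM on the female side (1.71-fold) and 34.1 and 18.1 CPM on the male side (1.89-fold), within the limit.

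**Figure D5:**
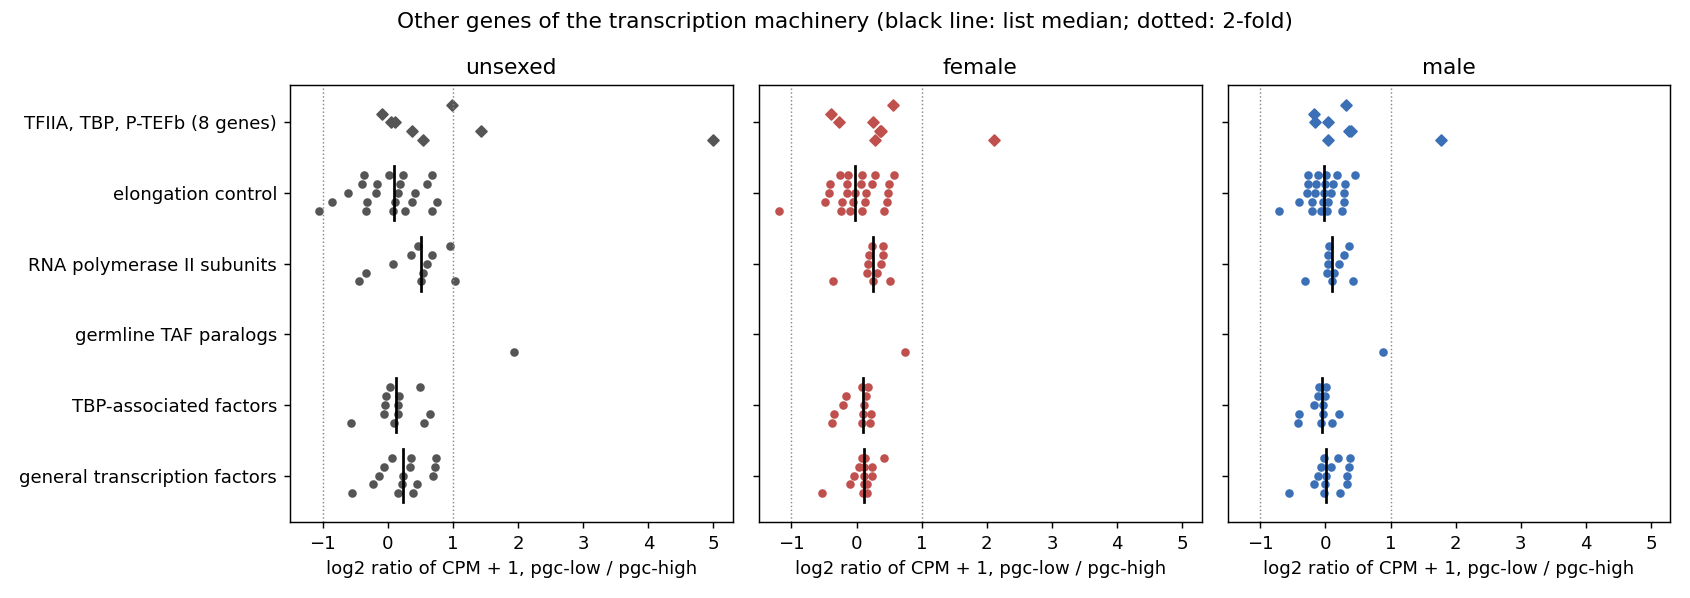
Log2 ratio of CPM + 1 in pgc-low over pgc-high germ cells (horizontal axis, the same in all panels) for the 8 genes (diamonds, all 8 drawn whatever the size filter) and for the other listed genes past the size filter (dots), by list (rows) and library (panels). Black lines mark list medians and dotted lines 2-fold. In the unsexed panel TfIIA-S-2 at 4.99 and mia at 1.93 lie farthest right, and EloA at -1.05 lies left of the limit.

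Between germ cells and other cells, 8 of 15 general transcription factors were higher in germ cells in the unsexed library. Of the 15, 1 was lower, TfIIFbeta of TFIIF, against 14.7% of all genes. In the female library 8 of 15 were higher, and in the male library 2 of 15, against 26.8%, 35.4% and 15.6% of all genes. Among those called higher, Brf, hay and Xpd reached 20 CPM in germ cells alone in the unsexed and female libraries. Cdk7 and Mat1 did so in the female library. Nothing is therefore read from the unsexed and female counts of this list. Of 12 TBP-associated factors, 1, 4 and 0 were higher, and the unsexed 1, Taf1, reached 20 CPM in germ cells alone. Of 11 polymerase subunits, 1, 1 and 0 were higher, Rpb11 in both cases. In any library 0 of either list were lower, against 14.7%, 14.8% and 11.5% of all genes, so little can be read from it. The elongation control genes were called in both directions. In the unsexed library 4 of 25 were higher and 5 lower, against 26.8% and 14.7% of all genes. Of 26 in the female library 3 were higher and 2 lower, against 35.4% and 14.8%, and in the male library 1 and 1 of 26, against 15.6% and 11.5%. The counts of all these lists were taken without TMM scaling and against all other cells. In the male library these cells include those with 1 or 2 of the 7 germ genes. The following genes of these calls were named after their values were seen. TH1, a subunit of the negative elongation factor, was lower in germ cells in each library, at 31.7 and 76.4 CPM in the unsexed, 38.5 and 89.7 CPM in the female and 23.1 and 57.5 CPM in the male one. Ssrp, a subunit of the histone chaperone FACT, was higher in each, at 205 and 83.2 CPM, 359.6 and 83.5 CPM, and 353 and 158 CPM. The others lower in the unsexed library were Larp7, Nelf-E, hyx and fs(1)h, with ratios of 0.362 to 0.468, and hyx was also lower in the female library (0.443). bin3 and dre4 were higher in the unsexed and female libraries, and EloA in the unsexed one (2.02-fold). Of the unsexed calls, EloA reached 20 CPM in germ cells alone, and Larp7 and hyx in other cells alone. Nothing is read from these unsexed calls of EloA, Larp7 and hyx. Between the sexes none of the listed genes past the filter differed 2-fold, where 1.03% of all genes were higher and 0.0388% lower, so little can be read from it. The median log2 female over male ratio of the general factors was -0.12 and that of the TBP-associated factors -0.11, near the autosomal median of -0.10.

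The genes whose level ran most like that of TfIIA-S-2 were ranked by the Pearson r of log2(CPM + 1) over 14 groups of cells, the pgc levels and the other cells of each library, among 6144 genes. The groups of a library share its kit and depth, and r takes in differences of level between libraries as well as within them, so it is a description. The first was blanks (r = 0.95), from 5.17 CPM in unsexed cells at 2000 CPM of pgc or more to 92.9 CPM in unsexed pgc-low cells. It was followed by CG14966 (0.93), AIMP1 (0.93), CG2017 (0.93) and CG1847 (0.92). Within the set of 8, Cdk9 was the most like TfIIA-S-2 (r = 0.77, rank 279), then TfIIA-S (0.66, rank 644) and Trf2 (0.60, rank 933). The other 4 genes had r between 0.13 and 0.35, and the part of the library in these values was not tested.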

How the data were processed

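Single-cell libraries of sorted embryonic cells were analysed from UMI counts that the authors deposited as matrices of genes by cells. The matrices were written by 10x software (3.0.1 for the unsexed, 3.1.0 for the sexed libraries), per the file headers. Cell Ranger and the build BDGP6 are named in the submitters' processing notes. Mitochondrial genes held 1.79% of unsexed UMIs and 0 UMIs in the sexed libraries, and were left out of CPM. The authors' dense count tables of the sexed libraries, at a median of 1.19 (female) and 2.52 (male) times the depth per cell, served as an alternative.

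Filters required 1000 UMIs, 500 genes and a mitochondrial share of at most 20% per cell, which 3771, 10275 and 6687 cells passed. Doublets were scored with Scrublet (scanpy 1.11.5). Its automatic threshold marked 26, 389 and 5 cells, and 5 of 6687 is too few for a working caller, so the highest-scoring cells were removed at 0.8% per 1000 cells (114, 845 and 358). Each class was represented by the sum of its cells' UMIs. Intervals are exact (Poisson, Clopper-Pearson for shares, conditional binomial for ratios), at 95%. Log2 ratios carry a pseudocount of 1 CPM. The pgc contrast leaves out pgc, and the germ contrast the 7 germ genes. TMM factors came from edgeR 4.0.16. The counting of calls was tested on simulated data. The 8 genes, the lists, the limits and the choice of matrices were made with earlier results of these data known. Named from each list are the 2 genes past the filter with the largest absolute unsexed log2 pgc ratio. The 5 genes most like TfIIA-S-2 are named by Pearson r.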

Additional observations from a re-analysis of the deposited data

Results flagged for a closer look

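TfIIA-L lay on opposite sides of equality along the pgc axis in different libraries. Its log2 ratio of pgc-low over pgc-high germ cells was 0.11 for unsexed, -0.28 for female and -0.16 for male cells. The unsexed value exceeded the female one by 0.38 and the male one by 0.27. Each interval leaves out 1 (equality), and each library is a single sample, so the difference between libraries was not tested. Kit version and embryo age differ between these libraries and cannot be told apart from the group. With TMM scaling the unsexed value was -0.097, and without cells holding at least 2 early blastoderm genes it was -0.0065.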

How the results depend on the processing

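No paired analysis was possible because each group has 1 library. Along the pgc axis the genes called numbered 1038 (unsexed), 329 (female) and 186 (male). A size filter of 5 CPM gave 1717, 652 and 389, and one of 50 CPM gave 577, 179 and 106. A fold limit of 1.5 gave 2052, 959 and 613, and one of 4 gave 278, 79 and 30. Leaving out cells with at least 2 early blastoderm genes gave 132 (female) and 108 (male). In the male library thinning gave 292 and pgc-high at 2000 CPM or more gave 664. That setting was not run in the female library, with 17 cells. Of the 8 genes called, the unsexed 3 became 1 at a fold limit of 4, which left TfIIA-S-2. The female 1 became 0 at 50 CPM and the male 0 became 1 at 5 CPM, TfIIA-S-2 in both. The fold limit of 4 called 278 of 4861 genes in the unsexed library, and nothing is read from the counts of the 8 genes.

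Between the sexes 55 genes were called. Keeping doublets gave 152, at least 4 of 7 germ genes gave 30, size filters of 5 and 50 CPM gave 159 and 22, and fold limits of 1.5 and 4 gave 443 and 11. Of the 8 genes, thinning and the 1.5-fold limit each gave 1, TfIIA-S-2. The 1.5-fold limit called 443 of 5152 genes.

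Between germ and other cells 2126, 2790 and 1475 genes were called. At least 4 of 7 germ genes gave 1335 (unsexed) and 410 (male). A size filter of 50 CPM gave 1308, 1796 and 873, and one of 5 CPM gave 2315 in the male library. A fold limit of 1.5 gave 3318 (unsexed) and 2982 (male), and one of 4 gave 816, 1172 and 422. Other cells with 0 of 7 germ genes gave 2825 (male). Of the 8 genes, the unsexed 4 became 1 with at least 4 of 7 germ genes, 2 at 50 CPM and 1 at a fold limit of 4, and the female 4 became 1 at that limit. The male 0 became 1 by the mean CPM of single cells and at 5 CPM, 3 at a fold limit of 1.5 and 4 with other cells at 0 of 7 germ genes. Over all genes the fold limit of 1.5 called 2982 of 5458 there. With other cells at 0 of 7 germ genes, 35.4% of 5588 genes were higher and 15.2% lower. Nothing is read from these counts of the 8 genes.

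The other 139 counts stayed within 1.5 times, and no called gene of the 8 changed direction under any alternative run. Where neither class has many UMIs, as for TfIIA-S-2 and Trf in female pgc-high cells (15 and 40 UMIs), depth limits the ratio.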
